A study of Homo sapiens with 48 samples.

Results

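The 8 genes described here are the Notch receptors NOTCH1, NOTCH2 and NOTCH3, the ligands JAG1, JAG2 and DLL1, and the target genes HES1 and HEY1. They were taken by name from the 58870 genes of the count table. The set was chosen by an earlier look at these data, in which NOTCH3 was among the largest falls after UPF1 knockdown in the line labelled CLIP. Values of that line are therefore given as a description with no test, and tests were run on the libraries of the other lines. All 8 genes were among the 16697 genes with enough counts to be tested.

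Notch receptors are single-pass membrane proteins that are activated by ligands on a neighbouring cell. After ligand binding, ADAM metalloproteases and then the gamma-secretase complex cut the receptor, and the released intracellular domain joins the DNA-binding protein RBPJ and mastermind coactivators to switch on genes such as HES1 and HEY1. HES and HEY proteins are transcriptional repressors, and in embryonic kidney the pathway is known for its part in nephron patterning. UPF1 is an RNA helicase that is central to nonsense-mediated mRNA decay, the pathway that degrades transcripts with premature or otherwise unusual stop codons.

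The study used the Flp-In 293 T-REx line, human embryonic kidney-derived cells that carry a single engineered site for a transgene. There were 8 stable lines. The line CLIP is taken here as the tag without UPF1, and the other 7 express CLIP-tagged UPF1 as WT or as F192E, FE-ER, I757R, IR-ER, E797R or LECY, names that are used here as the labels give them. Each line received 40 nM of a non-targeting small interfering RNA (siNT) or of one against endogenous UPF1 (siUPF1) by reverse transfection, and RNA was harvested after 72 h from 3 replicates of each of the 16 groups, which the series calls biological. The siRNA sequences are not given in the sources used here, and reads of the transgene and of endogenous UPF1 are summed in 1 count.

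Across the 48 libraries, totals were 6016962 to 14551811 expected counts (median 8670868.5) and 21386 to 24383 genes had a count. UPF1 checks the line labels, and the siRNA labels in CLIP only. It was 106 ± 7.44 CPM (± SD, n = 3) in CLIP with siNT and 20.4 ± 0.915 with siUPF1, which is 19.3% of the siNT mean. CPM, the unit of all levels here, is expected counts relative to the library total as scaled by edgeR. In the 14 groups with a CLIP-UPF1 transgene the UPF1 mean was 3259 to 4819 CPM. With siUPF1 it was higher in some of these lines (WT, 4059 to 4515) and lower in others (LECY, 3613 to 3259). A knockdown of endogenous UPF1 cannot be read from this summed count. Summed levels of 8 genes known from 293 cells were 1003 to 1265 CPM with siNT and 893 to 1324 with siUPF1. These genes were not all high. VIM, which many cell types express, was 439.5 to 715.5 CPM over all libraries, while PAX2 was 2.30 to 10.7 and TUBB3 5.87 to 16.65. Marker sums of endothelial cells did not exceed 1.34 CPM and those of blood cells 0.391 CPM in any library, with CD3E at 0 throughout. Fibroblast markers (3 of 5 tested) summed to 5.72 to 10.8 CPM with siNT and 4.04 to 13.1 with siUPF1.

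In hg38 with GENCODE 29 annotation, all 8 genes are protein-coding and only HES1 lies on the plus strand. NOTCH1 is at chr9:136494433-136545786, NOTCH2 at chr1:119911553-120069626 and NOTCH3 at chr19:15159038-15200981. JAG1 is at chr20:10637684-10673999, JAG2 at chr14:105140981-105168824 and DLL1 at chr6:170282206-170306565. HES1 is at chr3:194136145-194138732. NOTCH3 and JAG1 are the pair that fell most, and HES1 is the gene with matches to the RBPJ motif among the 6 members searched. Their promoters are shown 5′ to 3′ on the gene's strand, from 250 bases before to 50 bases after the start (RefSeq, GRCh38.p14), with each match to the motif in capitals.
NOTCH3, chr19:15200946-15201245, minus strand: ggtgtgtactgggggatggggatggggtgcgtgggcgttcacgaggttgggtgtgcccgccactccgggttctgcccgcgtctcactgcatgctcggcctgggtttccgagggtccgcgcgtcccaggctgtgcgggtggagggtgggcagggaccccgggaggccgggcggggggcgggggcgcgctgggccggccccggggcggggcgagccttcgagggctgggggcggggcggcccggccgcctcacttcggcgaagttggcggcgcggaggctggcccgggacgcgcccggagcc
JAG1, chr20:10673950-10674249, minus strand: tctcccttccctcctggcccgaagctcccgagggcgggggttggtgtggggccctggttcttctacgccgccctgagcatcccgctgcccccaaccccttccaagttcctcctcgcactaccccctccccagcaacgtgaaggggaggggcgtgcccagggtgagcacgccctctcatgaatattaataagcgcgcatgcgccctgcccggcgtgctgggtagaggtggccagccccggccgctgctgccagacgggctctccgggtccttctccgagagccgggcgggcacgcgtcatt
HES1, chr3:194135898-194136197, plus strand: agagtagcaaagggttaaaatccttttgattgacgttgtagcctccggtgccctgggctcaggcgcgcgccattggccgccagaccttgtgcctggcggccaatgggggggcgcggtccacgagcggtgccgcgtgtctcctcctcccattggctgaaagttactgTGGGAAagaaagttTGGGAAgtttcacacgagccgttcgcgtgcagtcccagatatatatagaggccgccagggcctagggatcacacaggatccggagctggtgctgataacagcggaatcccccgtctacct

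The motif searched was TGGGAA, the core bound by RBPJ, on both strands, alone and with no other motif. HES1 held 2 matches, whose first bases lie 84 and 70 bases before the start. No match was found in the same window of NOTCH1, NOTCH2, NOTCH3, JAG1 or JAG2. For NOTCH1 and NOTCH2 the last 30 bases of the window were not found in a GENCODE transcript of the gene. Those 2 windows rest on RefSeq starts that differ from the gene positions given above. DLL1 and HEY1 were not examined. Among 35116 promoters of this length, 24% held at least 1 match and 3.8% held 2 or more. A match describes the letters of the window only.

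With siNT, the members differed widely in level. Per kilobase of exon, the mean over the 7 CLIP-UPF1 lines was 35.7 CPM for HES1, 16 for NOTCH2, 8.99 for HEY1, 6.97 for JAG2, 5.38 for JAG1, 3.69 for NOTCH1, 1.78 for DLL1 and 1.0 for NOTCH3. NOTCH2 was thus the highest of the receptors on the per-length scale and NOTCH3 the lowest of all members. No line difference was called with siNT: in a joint test over the 7 lines, edgeR's quasi-likelihood test called 0 of 8 members (adjusted p = 1 for each, 0 at an unadjusted p under 0.05), against 0.0419% of all genes. NOTCH3 group means, for example, ran from 7.01 CPM in WT to 11.2 in IR-ER, a 1.60-fold range inside the spread of the replicates.

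Averaged over the 7 CLIP-UPF1 lines, siUPF1 lowered NOTCH3 and JAG1 most, lowered HEY1, NOTCH1 and HES1 by smaller amounts, and raised NOTCH2 and DLL1. That is 2 of 8 members called higher and 5 called lower (edgeR's quasi-likelihood test, adjusted p under 0.05 over all genes tested), where 29.8% of all genes were called higher and 29.1% lower. The median log2 change was -0.29 over the members and 0.00 over all genes. JAG2 was the member not called, at -0.19 ± 0.103 (log2, SE, adjusted p = 0.117). It passed with the replicate number as a block, at -0.17 (adjusted p = 0.0194).

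Line by line, the calls were 1 higher and 1 lower in WT (8.43% and 6.98% of all genes), 1 and 3 in F192E (11.8% and 10.1%), and 1 and 4 in FE-ER (10.1% and 8.52%). They were 1 and 3 in I757R (8.13% and 7.79%), 1 and 3 in IR-ER (9.21% and 7.8%), 1 and 4 in E797R (8.34% and 7.73%), and 0 and 4 in LECY (15.8% and 13.6%). The member called higher was NOTCH2 each time. Same-numbered libraries of a line deviated together, and with the replicate number as a block the calls were 1 higher and 3 lower in WT (13.7% and 12.4% of all genes), 2 and 4 in F192E (17.9% and 16.7%), 1 and 4 in FE-ER (16.2% and 14.9%), and 1 and 4 in I757R (14.4% and 14.1%). They were 1 and 4 in IR-ER (15.3% and 13%), 1 and 5 in E797R (14% and 13.5%) and 1 and 5 in LECY (21.4% and 20.2%). The block added NOTCH3 and HEY1 in WT, NOTCH1 and DLL1 in F192E, HES1 in I757R and IR-ER, NOTCH1 in E797R, and HES1 and DLL1 in LECY.

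**Figure D1:**
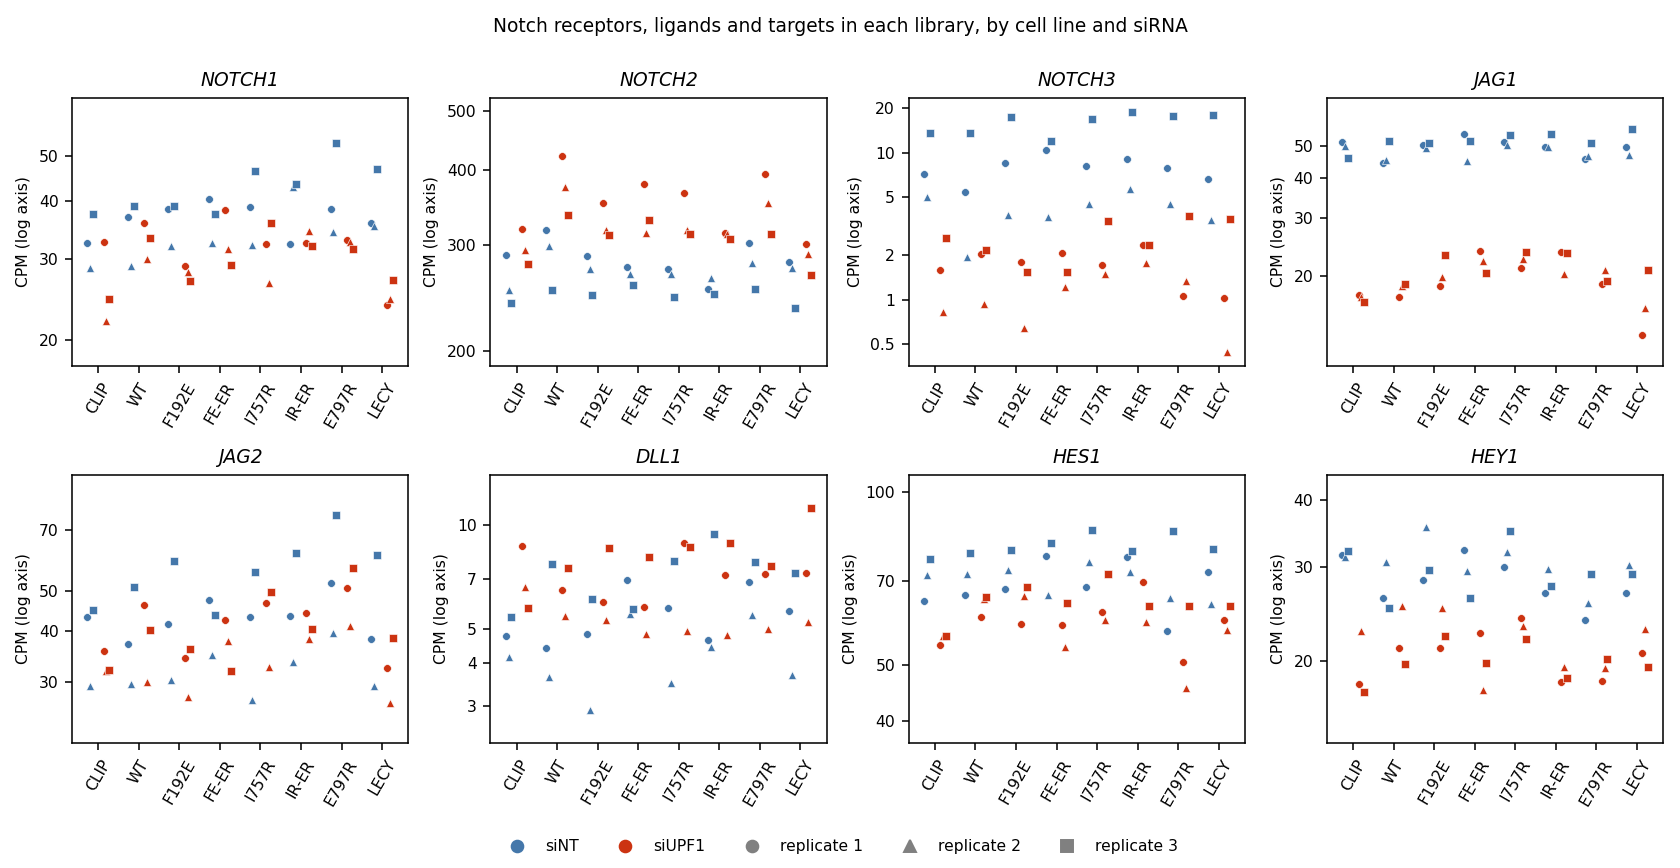
CPM of each member (log axis, 1 panel per gene) in every library, by cell line, with siNT in blue and siUPF1 in red and the marker shape giving the replicate number. JAG1 separates completely by siRNA in every line, NOTCH3 in all but WT and LECY, and JAG2 and DLL1 overlap in all 7 CLIP-UPF1 lines.

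NOTCH3, a receptor best known from smooth muscle and pericytes, had the largest change of the members. In WT it was 5.42, 1.93 and 13.7 CPM with siNT in replicates 1, 2 and 3, and 2.03, 0.940 and 2.18 with siUPF1. In F192E it was 8.51, 3.77 and 17.4 CPM against 1.80, 0.638 and 1.53. In FE-ER it was 10.4, 3.64 and 11.9 CPM against 2.07, 1.21 and 1.53. The groups did not overlap in F192E and FE-ER and overlapped in WT, where the lowest siNT library lay below the highest siUPF1 library. In I757R NOTCH3 was 8.07, 4.45 and 16.8 CPM with siNT against 1.72, 1.5 and 3.43 with siUPF1. In IR-ER it was 8.99, 5.63 and 18.9 CPM against 2.35, 1.78 and 2.36. In E797R it was 7.84, 4.49 and 17.6 CPM against 1.06, 1.34 and 3.69. These 3 lines showed no overlap. In LECY NOTCH3 was 6.65, 3.46 and 18 CPM with siNT against 1.03, 0.439 and 3.53 with siUPF1, and the groups just overlapped. In CLIP, which the choice of the set rests on, it was 7.16, 4.96 and 13.6 CPM against 1.58, 0.827 and 2.61, with no overlap.

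The mean NOTCH3 effect over the 7 lines was -2.34 ± 0.286 (log2, SE, adjusted p = 9.99e-09), which leaves 19.7% of the siNT level, or a 5.07-fold fall. It was the fall of rank 22 among 16697 genes. The line values ran from -2.86 in F192E (adjusted p = 0.00488) to -1.99 in WT (adjusted p = 0.0918), and 6 of 7 lines were called. NOTCH3 was lower with siUPF1 in 21 of 21 same-numbered pairs, as were 9.82% of all genes, with log2 ratios from -3.32 to -0.889 (median -2.21). With the replicate block it was called in all 7 lines, WT included (-1.94, SE 0.332, adjusted p = 1.23e-05). In CLIP the change was -2.39, given as a description. Counts were low: 17 to 173 expected counts with siNT (median 81) and 3 to 40 with siUPF1 (median 15) in the 7 lines.

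Without the block, single libraries decided several of these calls. NOTCH3 was no longer called (adjusted p = 0.0527 to 0.219, log2 change -2.67 to -1.43) without siNT replicate 3 of any of the 6 lines, siUPF1 replicate 1 or 2 of any but F192E, siUPF1 replicate 3 of FE-ER, I757R or IR-ER, or siNT replicate 1 of FE-ER or I757R. In WT it became called without siNT replicate 2 (-2.46, adjusted p = 0.0436) and was -0.998 without siNT replicate 3. The 7-line mean stayed called in each of the 42 single-library omissions (-2.54 to -2.20) and without each replicate number (-2.07 without number 3, -2.48 without number 2).

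**Figure D2:**
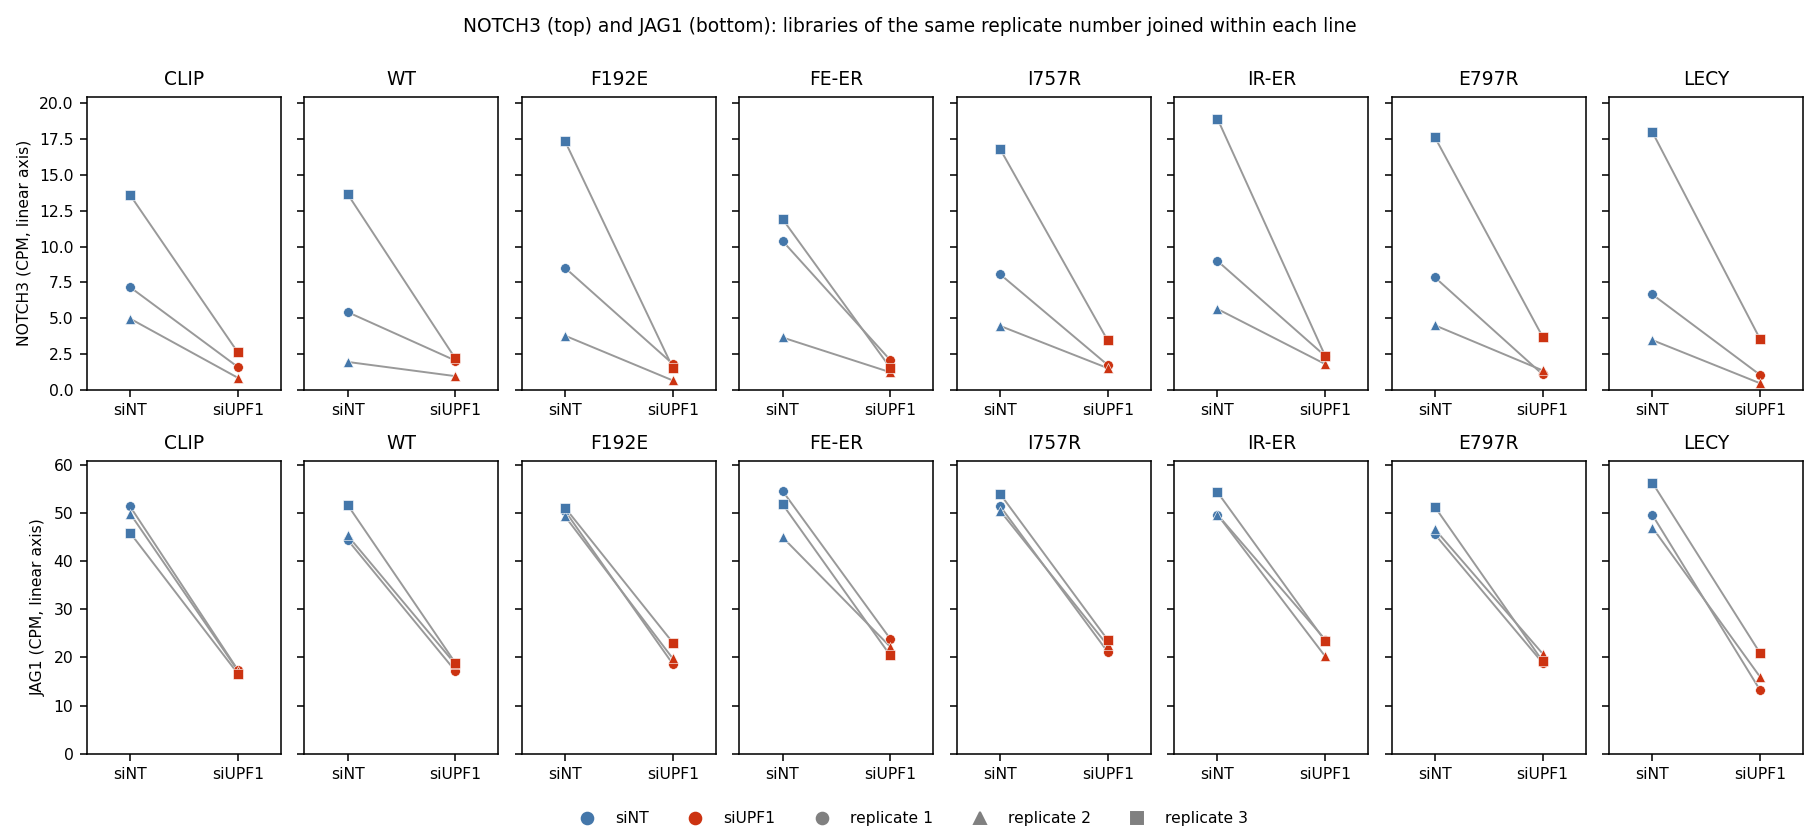
NOTCH3 (top) and JAG1 (bottom) in CPM on a linear axis from 0, with libraries of the same replicate number joined from siNT to siUPF1 in each line. Every line slopes down for both genes, and the siNT starting points of NOTCH3 spread by replicate number, with number 3 highest and number 2 lowest in all 8 lines.

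The replicate number ordered NOTCH3 in the same way in every line. With siNT, number 3 ran from 11.9 to 18.9 CPM (median 17.1, n = 8 lines), number 1 from 5.42 to 10.4 (median 7.96) and number 2 from 1.93 to 5.63 (median 4.11). The range of number 3 stood apart from the others, while those of numbers 1 and 2 overlapped slightly. Number 3 was the highest of its group in 8 of 8 siNT groups for NOTCH3 and HES1, which was true of 3.06% of all genes, and in 7 of 8 for NOTCH1, JAG2 and DLL1. Number 2 was the lowest in 8 of 8 for NOTCH3, JAG2 and DLL1. NOTCH2 ran the other way, with number 3 lowest in 8 of 8. The share of all genes with these other orders was not counted, so they are not shown to be particular to the members. Totals did not separate the numbers (medians 8851674, 8167821.5 and 8734352 expected counts for 1, 2 and 3), and the share of counts from mitochondrial mRNA had medians of 2.89%, 2.40% and 3.40%. Their part in the NOTCH3 order was not tested.

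NOTCH2, the most abundant receptor here, rose modestly. With siNT it was 235.5 to 317 CPM (median 269, 21 libraries) and with siUPF1 267 to 421 (median 317), and all siUPF1 libraries lay above all siNT libraries in 6 of 7 lines. For fewer than 7 lines apart, or fewer than 21 pairs in the same direction, the share of all genes was not counted, here and for other members. The mean change was +0.30 ± 0.0367 (log2, SE, adjusted p = 4.19e-09), or 123.1% of siNT. It was higher in 21 of 21 same-numbered pairs, as were 10.6% of all genes. It was called in 6 lines, with changes of 0.28 to 0.38, but not in LECY (0.12, SE 0.0971, adjusted p = 0.401), where siNT was 281, 275 and 235.5 CPM and siUPF1 301, 290 and 267.

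In edgeR's test without the block, adjusted p of NOTCH2 in the 6 lines ran from 0.00447 (WT) to 0.0369 (IR-ER). With the block it ran from 1.56e-06 (WT) to 0.000188 (IR-ER). Without the block, single libraries decided these calls. They were lost (adjusted p = 0.0582 to 0.175) without siUPF1 replicate 1 of any of the 6 lines, siNT replicate 3 of any but FE-ER, siNT replicate 2 of F192E or IR-ER, or, in IR-ER, any other library. NOTCH2NLA, a partial copy of NOTCH2 whose reads the counting could split from it, was 20.9 to 44.4 CPM over all libraries. Its mean went from 25.0 ± 0.930 CPM to 25.1 ± 4.04 in WT, from 23.7 ± 2.89 to 38.0 ± 5.49 in LECY and from 26.0 ± 1.42 to 39.1 ± 4.27 in CLIP (SD, n = 3). Its part in the NOTCH2 values was not tested.

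NOTCH1 fell slightly. It was 28.9 to 53.3 CPM with siNT (median 38.4) and 23.8 to 38.1 with siUPF1 (median 31.5), and the groups were apart in 3 of 7 lines. The mean change was -0.32 ± 0.0597 (log2, SE, adjusted p = 1.83e-05), which leaves 80.3%, and 19 of 21 same-numbered pairs were lower. The single-line call was LECY, where siNT was 35.8, 35.3 and 46.8 CPM and siUPF1 23.8, 24.6 and 27.0. All LECY siUPF1 libraries lay below all siNT libraries there, with a change of -0.64 ± 0.160 (adjusted p = 0.00193). In E797R the value was -0.37 (adjusted p = 0.103) and became a call without siNT replicate 2 (-0.50, adjusted p = 0.0451).

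JAG1, a ligand that binds all of these receptors, fell in every line with little spread. In CLIP it was 51.4, 49.95 and 45.9 CPM with siNT and 17.4, 17.3 and 16.7 with siUPF1. In WT it was 44.5, 45.4 and 51.8 CPM against 17.2, 18.6 and 18.9. In F192E it was 50.5, 49.4 and 51.2 CPM against 18.7, 19.8 and 23.1. In each of these lines the highest siUPF1 library was far below the lowest siNT library. In FE-ER JAG1 was 54.7, 45.0 and 51.9 CPM against 23.9, 22.2 and 20.4. In I757R it was 51.5, 50.55 and 54.1 CPM against 21.2, 22.5 and 23.7. In IR-ER it was 49.7, 49.7 and 54.4 CPM against 23.7, 20.2 and 23.4. The pattern was the same in these lines. In E797R JAG1 was 45.6, 46.7 and 51.3 CPM against 18.9, 20.8 and 19.2, and in LECY 49.7, 47.0 and 56.4 against 13.2, 15.9 and 20.9.

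The mean JAG1 effect over the 7 lines was -1.31 ± 0.0411 (log2, SE, adjusted p = 1.36e-26), which leaves 40.4% of the siNT level.  The line values ran from -1.60 in LECY (adjusted p = 2.05e-14) to -1.19 in FE-ER (adjusted p = 1.11e-10), all 7 called, and the libraries did not overlap in any of the 7 lines, as for 3.73% of all genes. No single omitted library removed a JAG1 call. In CLIP the change was -1.52, given as a description.

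JAG2, a second Jagged ligand, overlapped between siRNAs in all 7 lines. It was 27.1 to 76.5 CPM with siNT (median 43.2) and 26.6 to 56.7 with siUPF1 (median 38.3), with 13 of 21 pairs lower. DLL1, a Delta-like ligand, was 2.93 to 9.40 CPM with siNT (median 5.66) and 4.82 to 11.2 with siUPF1 (median 7.17), with 15 of 21 pairs higher. Its mean change of +0.28 ± 0.123 (log2, SE, adjusted p = 0.0486) was just past the threshold, and no single line was called. Leaving out any one of 27 of the 42 libraries ended that call (adjusted p = 0.0551 to 0.132): every siNT replicate 2, every siUPF1 replicate 3, siNT replicate 3 of FE-ER, and either replicate 1 of any line but FE-ER. DLL1 overlaps FAM120B, which was 49.7 to 72.5 CPM in all libraries and went from 66.2 to 56.7 in WT, and the strand setting of the counting is not given in the sources used here. AL512356.1, which overlaps JAG2, was 0 to 3.12 CPM, and the antisense genes listed at NOTCH1 and JAG1 were at 0 in all libraries.

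HEY1, a repressor induced by Notch, fell in a narrow band. It was 23.9 to 35.7 CPM with siNT (median 29.2) and 17.7 to 25.4 with siUPF1 (median 20.8). The groups were apart in 6 of 7 lines. HEY1 was lower in 21 of 21 pairs, as were 9.82% of all genes. The mean change was -0.47 ± 0.043 (log2, SE, adjusted p = 3.65e-12), which leaves 72.4%. All lines were called but WT, whose values were 26.3, 30.6 and 25.2 CPM against 21.1, 25.4 and 19.7, and where siUPF1 replicate 2 exceeded siNT replicate 3 (-0.32, adjusted p = 0.0575). That WT value passed without siUPF1 replicate 2 (adjusted p = 0.0251) or siNT replicate 3 (adjusted p = 0.0479), and the E797R call was lost without siNT replicate 3 (adjusted p = 0.0537).

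HES1, the best-known direct Notch target, fell less than HEY1. Among the 6 members searched, which leave out HEY1, HES1 was the gene with RBPJ core matches in its promoter. It was 57.4 to 85.8 CPM with siNT (median 73.4) and 45.8 to 72.1 with siUPF1 (median 61.9), apart in 4 of 7 lines. HES1 was lower in 21 of 21 pairs, as were 9.82% of all genes. The mean change was -0.26 ± 0.0446 (log2, SE, adjusted p = 2.98e-06), which leaves 83.3%. It was called in FE-ER (-0.35, adjusted p = 0.0303) and E797R (-0.37, adjusted p = 0.0255). The FE-ER call was lost without siNT replicate 1 or 3 or siUPF1 replicate 1 or 2, and the E797R call without siNT replicate 3 or siUPF1 replicate 1 or 2 (adjusted p = 0.0691 to 0.304 over both). In CLIP the differences were -0.69 for HEY1, -0.35 for HES1, -0.32 for NOTCH1, -0.23 for JAG2, 0.19 for NOTCH2 and 0.55 for DLL1, all given as descriptions.

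**Figure D3:**
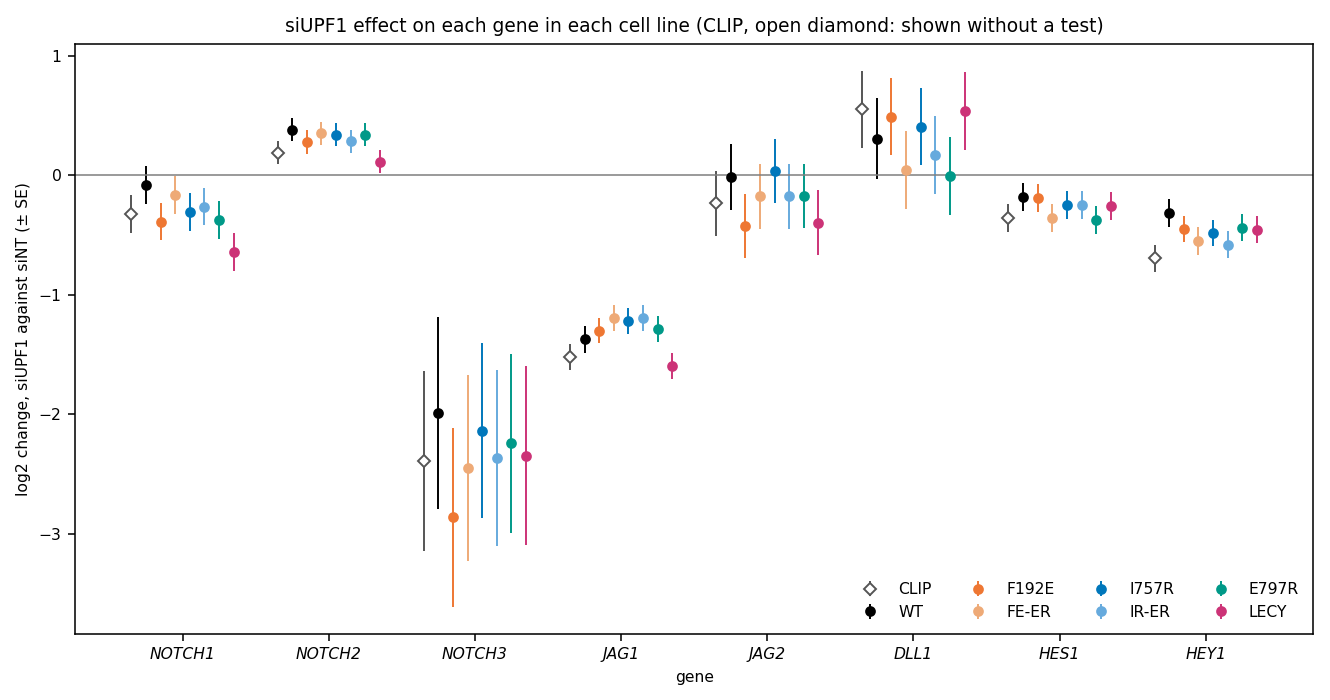
Log2 change with siUPF1 against siNT (± SE) for each member in each line, with CLIP as open diamonds shown without a test. NOTCH3 lies between -2.86 and -1.99 and JAG1 between -1.60 and -1.19 in the 7 CLIP-UPF1 lines, and NOTCH2 lies above 0 in each of them.

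The mutant lines were then set against WT, which all 6 comparisons share. With siUPF1 and without the replicate block, no member was called in F192E (1.82% of all genes called), FE-ER (0.425%), I757R (0.0779%), IR-ER (0.246%) or E797R (0.0479%). At an unadjusted p under 0.05 there were 1, 1, 1, 2 and 1 members. In LECY 1 of 8 was called, against 13.5% of all genes: NOTCH2, at 286 ± 17.4 CPM against 377 ± 42.6 in WT (SD, n = 3), a log2 difference of -0.40 ± 0.097 (SE, adjusted p = 0.00351). With the replicate number as a block, edgeR also called NOTCH2 lower than WT in F192E (-0.20, adjusted p = 0.0231) and IR-ER (-0.27, adjusted p = 0.00586). NOTCH1 was then called lower in LECY as well (-0.39, adjusted p = 0.0299). The block raised the number of all genes called too, as given in the last section. JAG1 with siUPF1 was lowest in LECY, at 16.7 CPM, and highest in IR-ER, at 22.5. Neither was called against WT (LECY -0.11, 95% interval -0.35 to 0.12, adjusted p = 0.601, and IR-ER 0.30, 95% interval 0.06 to 0.53, adjusted p = 0.468). The IR-ER interval, not adjusted for the number of genes, lay above 0. So did those of FE-ER (0.28, 0.05 to 0.51, adjusted p = 0.439) and I757R (0.30, 0.06 to 0.53, adjusted p = 0.567), also not called. Those of F192E (0.17, -0.06 to 0.39) and E797R (0.10, -0.13 to 0.34) included 0.

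The siUPF1 effects of NOTCH1 and NOTCH2 differed between LECY and WT in the interaction test only with the replicate number as a block, and without the block no member was called in any mutant line. Without the block, the called share of all genes was 0.18% for F192E, 0.00599% for FE-ER, 0% for I757R, IR-ER and E797R, and 3.31% for LECY, and members at an unadjusted p under 0.05 numbered 0 in 5 comparisons and 1 in LECY. That 1 was NOTCH1, at -0.56 (95% interval -1.02 to -0.11, adjusted p = 0.212). With 1 block of replicate numbers over all groups, LECY minus WT was -0.57 ± 0.188 for NOTCH1 (log2, SE, edgeR adjusted p = 0.0491) and -0.27 ± 0.0836 for NOTCH2 (adjusted p = 0.0359), where 8.46% of all genes were called, and no member was called for F192E (0.563% of all genes), FE-ER (0.0299%), I757R, IR-ER or E797R (0% each). The intervals for NOTCH3 without the block were wide, for example -3.18 to 1.43 around -0.87 for F192E minus WT and -2.66 to 1.94 around -0.36 for LECY minus WT. With the block its SE was smaller, at -0.82 ± 0.475 (adjusted p = 0.704) and -0.46 ± 0.477 (adjusted p = 0.657). For JAG1 in LECY minus WT the interval was narrower, -0.54 to 0.09 around -0.23. Described without a test, WT and CLIP with siUPF1 differed by 0.10 for NOTCH3, 0.09 for JAG1 and 0.34 for NOTCH2 on the log2 scale.

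Genes whose level over the 16 group means was among the most like NOTCH3 were LIF, a cytokine of the interleukin-6 family (Pearson r = 0.988), LOX, which cross-links collagen (0.985), H6PD, an NADPH-producing enzyme of the endoplasmic reticulum (0.984), and RAB6A, a Golgi GTPase (0.983). Each was at one level with siNT and at a lower one with siUPF1. LOX group means were 12.3 to 16.1 CPM with siNT and 2.42 to 4.25 with siUPF1, and those of LIF were 4.63 to 5.64 and 1.49 to 2.08. JAG1 ranked 7 among all other genes by this measure (r = 0.981). The r of HEY1 was 0.895, of HES1 0.857, of NOTCH1 0.837, of JAG2 0.541, of DLL1 -0.706 and of NOTCH2 -0.821. These 16 points share the split between siRNAs, so r mostly describes which genes differ between siNT and siUPF1.

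Other genes of the pathway moved in both directions, as did the members. Of a list of 57, 53 were tested (all but DLK1, MFNG, DTX1 and HES5), and in the mean over the 7 lines 21 were called higher and 13 lower, where 29.8% of all genes were called higher and 29.1% lower, with a median log2 change of 0.10 against 0.00 over all genes. These counts, and those by role, describe the list and were not tested against other genes. In the receptor and ligand cleavage group 6 of 9 were higher and 1 lower. FURIN, which cuts the receptor during its maturation, went from 45.3 to 96.4 CPM (1.09 ± 0.0739, log2, SE, adjusted p = 1.32e-15) and NCSTN, a gamma-secretase subunit, from 31.8 to 60.65 CPM (0.93 ± 0.0542, adjusted p = 6.19e-18), each called in 7 of 7 lines. PSENEN, another gamma-secretase subunit, fell by 0.31 and was called in 3 lines.

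Among proteins that act with the receptor's intracellular domain, 3 of 9 were higher and 4 lower. RBPJ itself went from 104.9 to 87.5 CPM (-0.26 ± 0.032, adjusted p = 3.17e-09, called in 4 lines) and KAT2A, a histone acetyltransferase, rose by 0.42 (6 lines). Of 9 corepressors, 3 were higher and 2 lower. HDAC1, a histone deacetylase, rose by 0.67 (7 lines), while CTBP1 fell by 0.34 (7 lines). Of 4 glycosyltransferases, POGLUT1 rose by 0.69 (7 lines) and POFUT1, which adds O-fucose to the receptor, fell by 0.30 (4 lines).

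Of 10 genes of ubiquitination, endocytosis and turnover, 5 were higher and 4 lower. NUMBL, related to the Notch inhibitor NUMB, fell by 0.47 (7 lines), DTX3 rose by 0.30 (5 lines) and NEURL1, at 1.39 CPM with siNT, fell by 0.58 (no line called). Of the 4 other receptors and ligands, DLL4 rose by 0.57 (2 lines) and DLK2 fell by 0.36 (no line called). None of the 8 other target genes tested was called lower: CCND1, a cyclin that Notch can induce, rose by 0.53 (4 lines) and NRARP, a feedback inhibitor of the pathway, by 0.23 (1 line), while 6 did not pass the test. Of the targets tested, HES1 and HEY1 were those called lower. Not passing the test does not show that a target was unchanged. The list was not picked for how its genes moved, but with earlier results of these data known.

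**Figure D4:**
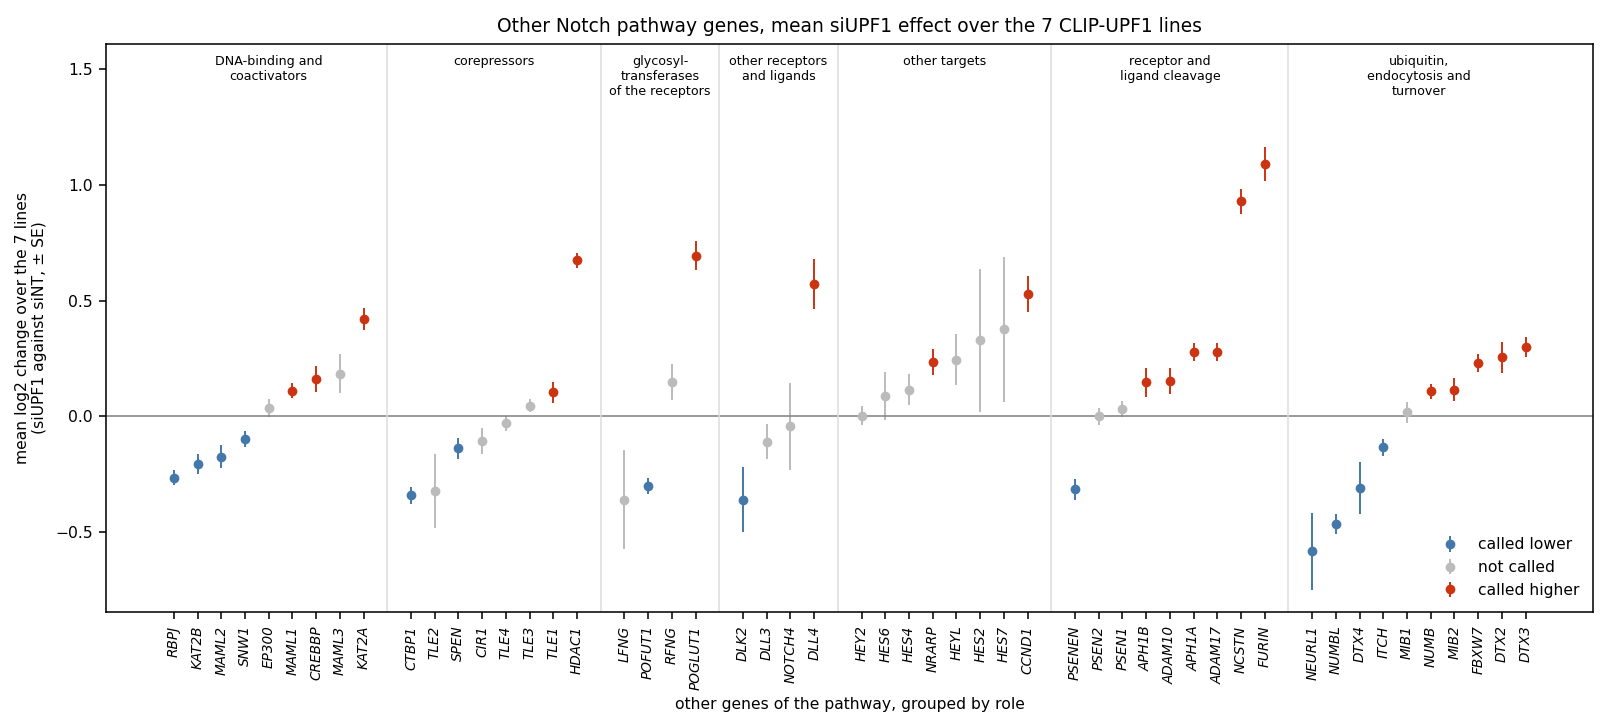
Mean log2 change over the 7 CLIP-UPF1 lines (± SE) for 52 of the 53 other pathway genes tested, grouped by role, in red where called higher, blue where called lower and grey where not called. FURIN (1.09) and NCSTN (0.93) stand highest, in the cleavage group, and NEURL1 (-0.58) lowest.

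NOTCH3 is known from mural cells, so their markers were read beside it. PDGFRB did not exceed 0.328 CPM, MYH11 0.837 and DES 0.843 in any library. ACTA2, a smooth muscle actin that many cultured cells express, moved with NOTCH3: in the 7 lines it was 18.7 to 33.6 CPM with siNT (median 23.7) and 5.85 to 15.1 with siUPF1 (median 8.71). RGS5 was 3.49 to 6.83 CPM (median 4.27) and 2.68 to 6.73 (median 3.99). The summed level of the 5 genes, 2 of them tested, was 23.5 to 37.8 CPM with siNT and 10.5 to 19.0 with siUPF1 over all 8 lines, and its part in the NOTCH3 result was not tested. In bulk RNA, fewer cells with a transcript and less of it per cell cannot be told apart.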

How the data were processed

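RNA-seq of ribosomal RNA-depleted RNA gave 1 table of 58870 genes by 48 libraries. Per the submitters' processing notes, the authors used cutadapt, STAR, RSEM and DESeq2 with hg38, and versions, annotation release and strand setting are not given there. The deposited values are RSEM expected counts per gene (9.16% of all values not whole), which were rounded here before testing. With a median of 8670868.5 counts per library, members under 10 CPM rest on few counts.

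Groups came from the sample labels. One edgeR 4.0.16 quasi-likelihood model (R 4.3.3, robust, TMM, filterByExpr with a minimum count of 10) held all 16 groups, with Benjamini-Hochberg adjustment over 16697 genes and calls at an adjusted p under 0.05. CPM in the text uses the TMM-scaled library sizes. The model was also run on simulated data for the siUPF1 effect in WT, drawn with no differences between replicate numbers. Alternatives were DESeq2 1.42.0, its size factors in edgeR for the joint siNT test, no filter, 2-group fits, leaving out libraries, and the replicate block.

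Replicate numbers come from the labels. The deviations of same-numbered siNT and siUPF1 libraries of a line correlated at 0.115 to 0.469 in all 24 pairs, so the numbers pair the siRNA arms. The main model does not use this pairing, which the replicate block does. Libraries and replicate numbers were left out of the main model only, not of the model with the block. Same-numbered mutant and WT libraries with siUPF1 correlated as well, at 0.0869 to 0.377. No 2 libraries held identical values.

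The members and lists were chosen with earlier results of these data known. Genes named beyond the 8 members are UPF1, the largest called rise and fall in each role of the pathway list, any called in at least 5 of 7 lines in 1 direction, and the 5 most like NOTCH3 over 16 group means of log2 CPM (prior count 2). Some genes that this rule names are not reported here. Marker genes, overlapping genes and NOTCH2NLA were given as levels beside the members. Role lists covered receptors and ligands, glycosyltransferases, cleavage, ubiquitination, coactivators, corepressors and targets, and marker lists covered 293, fibroblast, mural, endothelial and blood cells.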

Additional observations from a re-analysis of the deposited data

How the results depend on the processing

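The mean effects over the 7 lines of NOTCH3, JAG1, HEY1, NOTCH1, HES1 and NOTCH2 kept their direction and call under every alternative run, and NOTCH3 and JAG1 kept their direction in every line. Within single lines several members' calls changed with the setting, and with the replicate block NOTCH3 was called in all 7 (adjusted p = 3.6e-10 to 1.23e-05). Where a cause is not named below, it was not tested.

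With the replicate block, genes called for the siUPF1 effect were 4356 in WT, 5773 (F192E), 5192 (FE-ER), 4756 (I757R), 4715 (IR-ER) and 4583 (E797R), and members called in WT were 4. The block lost no member call. Mutant and WT libraries of the same number correlated at 0.0869 to 0.377, a range that overlaps that of the siRNA arms (0.115 to 0.469). These correlations give no ground to treat the 2 kinds of comparison differently. As elsewhere, the main test of mutant against WT was run without the block. With it, genes called against WT with siUPF1 were 1167 for F192E (1 member, NOTCH2), 436 for FE-ER, 89 for I757R, 332 for IR-ER (1 member, NOTCH2), 80 for E797R and 4074 for LECY (2 members, NOTCH1 and NOTCH2). Differences of effects, which set siRNA arms within lines against each other, gave with the block 94 for F192E, 5 for FE-ER and 1412 for LECY (2 members: NOTCH1, -0.57, adjusted p = 0.0491, and NOTCH2, -0.27, adjusted p = 0.0359), and the joint siNT test gave 33.

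DESeq2 called 129, 31, 90 and 40 genes against WT with siUPF1 in FE-ER, I757R, IR-ER and E797R, called NOTCH3 in WT (adjusted p = 0.0414) and did not call the DLL1 mean (adjusted p = 0.0535). Without the filter those 4 counts were 148, 103, 196 and 40, the differences of effects gave 87 for F192E, 26 for FE-ER, 34 for I757R, 34 for IR-ER and 18 for E797R, and the joint siNT test gave 200. NOTCH3 in WT (adjusted p = 8.98e-09) and the JAG2 mean (adjusted p = 0.000399) were then called, and NOTCH2 lost its call in F192E, I757R and IR-ER (adjusted p = 0.0617 to 0.183). With only the 2 groups of a line, genes called were 1204 in WT, 1344 in I757R and 1394 in E797R, members were 1 in WT and 2 in E797R, and NOTCH3 in LECY lost its call (adjusted p = 0.0527). Over members and comparisons, the fit without the filter gained 4 calls and lost 4, and the 2-group fits gained 1 and lost 7. DESeq2's size factors in edgeR, run for the joint siNT test, left it at 7 genes and 0 members.

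Leaving out 1 library or, as an alternative added after seeing the data, 1 replicate number from all groups gave fewer samples and these ranges. Genes called for the siUPF1 effect were 1056 to 2379 in WT, 1832 to 3064 in F192E, 1484 to 2677 in FE-ER, 943 to 2243 in I757R, 1131 to 2325 in IR-ER, 1094 to 2208 in E797R and 2887 to 4346 in LECY. Members called were 1 to 3 in WT, 2 to 4 in F192E, 2 to 5 in FE-ER, 2 to 4 in I757R, 2 to 3 in IR-ER and 1 to 6 in E797R. Against WT with siUPF1, genes called were 87 to 253 for F192E, 8 to 88 for FE-ER, 0 to 16 for I757R, 7 to 70 for IR-ER, 0 to 18 for E797R and 1201 to 2029 for LECY, where members were 0 to 1 (0 without number 2). Differences of effects gave 0 to 31 for F192E, 0 to 2 for FE-ER and 170 to 525 for LECY, and the joint siNT test 2 to 9. Signs turned only for members not called in that comparison: DLL1 in E797R (-0.13 to 0.13), FE-ER (-0.24 to 0.21) and IR-ER (-0.062 to 0.60), JAG2 in E797R (-0.37 to 0.11), I757R (-0.19 to 0.28), IR-ER (-0.36 to 0.095) and WT (-0.20 to 0.23), NOTCH1 in WT (-0.20 to 0.011), and the JAG2 mean (-0.27 to 0.0043), which was called without number 2 (adjusted p = 0.00835) and near 0 without number 3.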
